A study of Mus musculus with 3 samples.

Results

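The Ifitm genes encode the interferon-induced transmembrane proteins, and 4 of the 32285 genes in the deposited tables are described here: Ifitm1, Ifitm2, Ifitm3 and Ifitm6. They were chosen by symbol with earlier values of these data known, and their levels were read in CD45+ cells of B16F10 tumours, a melanoma line implanted subcutaneously in C57BL/6 mice. On day 9 of tumour growth every mouse received Pmel-1 cells through a vein. These are cytotoxic T cells with a receptor for gp100, a protein of pigment cells, and had been activated in culture. Tumours were collected 3, 7 and 14 days after the transfer. There is 1 library per day, each joining cells of 3 mice in equal numbers, so the days could not be compared over replicates, and values are given with no test and no p-value. Day after transfer, tumour age and library cannot be told apart, and mice without transferred cells were not analysed here. The labels differ on whether CD45+ cells were taken with a cell sorter or with magnetic beads.

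IFITM proteins are short membrane proteins that hinder the fusion of enveloped viruses with the cell. Ifitm1 lies mainly at the cell surface, whereas Ifitm2 and Ifitm3 lie mainly in endosomes, where Ifitm3 is the best studied restriction factor, and Ifitm6 is a mouse relative about which less is known. The genes are classical targets of interferons: type I interferon acts on DNA at interferon-stimulated response elements, and interferon-gamma at gamma-activated sites. In haematopoietic cells they are best known from myeloid cells, and a tumour infiltrate holds both myeloid cells and interferon-producing T and NK cells.

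The 4 genes lie within 63.1 kb of mouse chromosome 7 (GENCODE M21 annotation of GRCm38). Ifitm2 runs from 140954837 to 140955987 on the minus strand, Ifitm1 from 140967221 to 140969825 on the plus strand, Ifitm3 from 141009586 to 141010770 on the minus strand and Ifitm6 from 141015699 to 141017924 on the minus strand. Because the genes share inducers and a locus, the 150 bases around each RefSeq transcription start (100 before, 50 after; GRCm38.p6) are shown to set their core promoters side by side. Capitals mark matches to a plain form of the interferon-stimulated response element, which is GAAA, any 2 bases and GAAA, and the windows are chr7:140967976-140968125 (plus strand, Ifitm1), chr7:140955912-140956061 (minus strand, Ifitm2), chr7:141010695-141010844 (minus strand, Ifitm3) and chr7:141016843-141016992 (minus strand, Ifitm6).
Ifitm1: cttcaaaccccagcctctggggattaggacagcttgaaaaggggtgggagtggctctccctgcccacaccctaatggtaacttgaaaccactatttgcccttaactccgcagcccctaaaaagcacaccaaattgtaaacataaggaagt
Ifitm2: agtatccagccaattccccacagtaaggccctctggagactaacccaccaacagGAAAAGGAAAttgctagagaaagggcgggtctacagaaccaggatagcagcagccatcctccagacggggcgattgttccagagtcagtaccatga
Ifitm3: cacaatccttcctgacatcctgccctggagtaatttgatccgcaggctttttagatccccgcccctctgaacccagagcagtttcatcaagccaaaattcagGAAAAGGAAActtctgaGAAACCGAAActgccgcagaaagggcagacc
Ifitm6: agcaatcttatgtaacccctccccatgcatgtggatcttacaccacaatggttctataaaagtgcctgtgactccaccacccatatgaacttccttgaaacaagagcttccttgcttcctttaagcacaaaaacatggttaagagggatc

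With the first transcribed base as position 1 and the base before it as -1, Ifitm2 held 1 match, GAAAAGGAAA at position -46. Ifitm3 held 2 matches, GAAAAGGAAA at position 3 and GAAACCGAAA at position 20, both just downstream of the start. The RefSeq starts of Ifitm1 and Ifitm6 lie inside the gene intervals of the GENCODE annotation, so upstream starts of these 2 genes are not covered by the windows. Ifitm1 and Ifitm6 held 0 matches in these windows. On either strand, this motif was found in 1.46% of the corresponding 150-base windows of all 32851 RefSeq promoters, and in 3.44% of their full 300-base windows. A plain form of the gamma-activated site, TTC, any 3 bases and GAA, matched once in Ifitm3 (TTCTGAGAA at position 14, overlapping the second response element match) and once in Ifitm6 (TTCCTTGAA at position -10), against 3.91% of the 150-base windows. These matches describe letters in a window, and factor binding was not measured.

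The deposited counts of UMIs, the tags that let a captured RNA molecule be counted once, were summed over barcodes with at least 1500 UMIs, which left 2775, 2600 and 2902 barcodes at days 3, 7 and 14, with medians of 9515, 9212 and 9962 UMIs. Of them, 4.97%, 6.92% and 3.00% carried a cell barcode also found in another library, a share that reached 53.7% among day 7 barcodes of 20000 UMIs or more. Cells were taken by marker genes into gates: CD8 T (443, 517 and 458 cells at days 3, 7 and 14), CD4 T (62, 114 and 176), NK (208, 401 and 158), type 2 conventional dendritic cells or cDC2 (87, 91 and 95), monocytes (607, 398 and 375) and neutrophils (85, 76 and 137), and into 7 further gates. Levels are UMIs per 1000000 UMIs of the gate (CPM). Among marker genes that the gates did not use, Csf3r, Retnlg and Cxcr2 summed to 1832, 2297 and 4197 CPM in neutrophils. Trac, Cd3g, Cd5 and Lck summed to 1904, 2554 and 1938 CPM in CD8 T cells and to 1865, 2608 and 2052 CPM in CD4 T cells. Clec10a, Flt3, H2-DMb2 and Cd74, checked as cDC2 markers, summed to 858, 473 and 1168 CPM in CD8 T cells. In CD4 T cells they summed to 3209, 1316 and 2800 CPM. So both T cell gates also held RNA that marks other cells. The sum does not name those cells, since it was 16376 CPM in B cells and 17152 CPM in cDC2 at day 3. The NK markers Klre1, Klra8, Eomes and Nkg7 summed to 1904, 2038 and 1410 CPM in CD8 T cells. This sum is not read as RNA of NK cells. All intervals are exact 95% intervals that cover counting error only. A ratio between days is called higher or lower where it was at least 1.5-fold, its interval excluded 1 and the gene had at least 20 UMIs over both libraries, which is a rule of size and not a test.

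All 4 genes were highest in myeloid gates. By the middle of its 3 daily levels, Ifitm3 ranked highest in monocytes, cDC2 and non-classical monocytes, Ifitm2 in neutrophils, cDC2 and monocytes, Ifitm6 in monocytes, non-classical monocytes and neutrophils, and Ifitm1 in neutrophils and cDC2. For each of the 4 genes the lowest middle level was in plasmacytoid dendritic cells (pDC), and CD8 T and NK cells lay in the lower part of the order for each of them. Since a 3' library counts molecules and not fragments, levels of different genes can be compared as molecules captured.

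**Figure D1:**
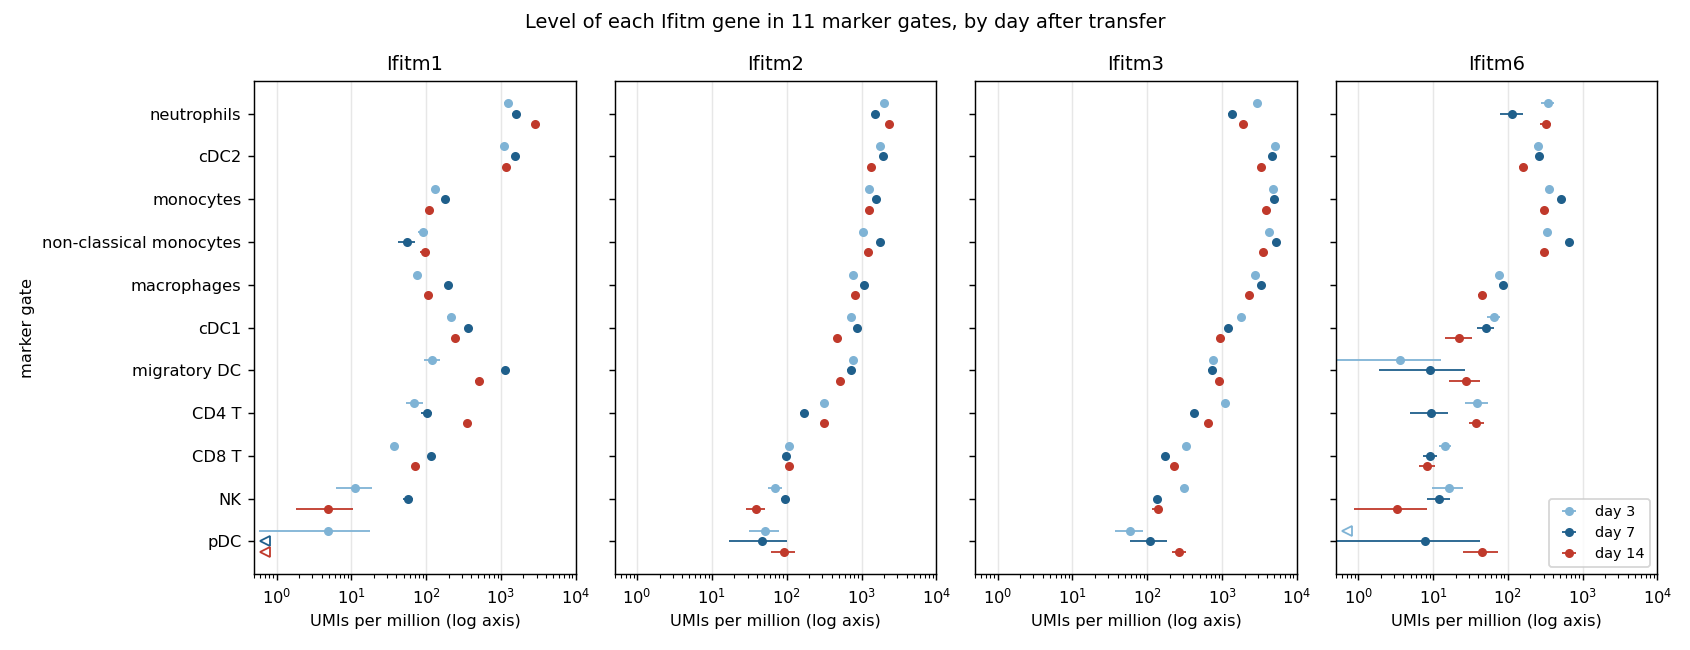
Level of each Ifitm gene in CPM (log axis) in 11 marker gates, with points for days 3, 7 and 14 after transfer, bars for exact 95% counting intervals and open triangles for 0 UMIs. Ifitm3 and Ifitm2 are lower in lymphoid than in most myeloid gates, while Ifitm1 stands above 1000 in neutrophils and cDC2 at every day and below 200 in monocytes.

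Ifitm3, the endosomal antiviral protein, was the most abundant of the 4 in monocytes, with 4744 CPM at day 3, 4899 CPM at day 7 and 3825 CPM at day 14. It was found in 100% of monocytes at each day. In cDC2 it had 5062, 4596 and 3320.1 CPM, and in non-classical monocytes 4236, 5176 and 3562 CPM, so that these 3 gates overlapped across days and no order among them holds. Macrophages came below them with 2767, 3351 and 2283 CPM, then neutrophils with 2963, 1347 and 1921 CPM, a gate that overlapped with macrophages at day 3. Conventional dendritic cells of type 1 (cDC1) had 1814, 1212 and 939 CPM. Dendritic cells with the migration genes Ccr7 and Fscn1 had 756, 741 and 908 CPM.

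Ifitm2 was spread more evenly over myeloid gates. Its level was 1998, 1512 and 2362 CPM in neutrophils at days 3, 7 and 14, 1766, 1956 and 1323 CPM in cDC2 and 1241, 1554 and 1252 CPM in monocytes. These ranges overlap, and so does that of non-classical monocytes at 1056, 1782 and 1220.3 CPM. At least 99.2% of monocytes held an Ifitm2 UMI at each day. Of the 4 genes it is also the one whose reads are least certain: 48.5% of its 50-base stretches, and 27.5% of those in its last 300 bases, occur in another annotated gene, against 0% in the last 300 bases of the other 3, and 40.9% of its exon bases are shared with the readthrough gene Gm45717. Gm45717 is not among the genes of the deposited tables, so no UMI was counted to it, yet it is among the genes behind the shared stretches. How the authors' counting treated reads shared with other genes is not given in the sources used here.

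Ifitm6 reached 354, 518 and 307 CPM in monocytes and 333, 656 and 306 CPM in non-classical monocytes at days 3, 7 and 14. Neutrophils had 344, 114 and 322 CPM and cDC2 had 252, 263 and 159 CPM, so that these 4 gates overlap. Macrophages had 75.4, 87.3 and 44.7 CPM, and at day 7 their interval (76.7 to 98.8) overlapped with that of neutrophils (77.3 to 161). Of monocytes, 77.6%, 83.7% and 72.5% held an Ifitm6 UMI, so this gene was common in the gate without being universal. In migratory dendritic cells it had 2, 3 and 19 UMIs in all, although the same cells held 67, 375 and 353 UMIs of Ifitm1.

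Ifitm1 had another pattern. Neutrophils held 1234, 1571 and 2846 CPM of this surface protein's RNA at days 3, 7 and 14, and cDC2 1111, 1563 and 1162 CPM, while monocytes held only 131, 181 and 111 CPM. By the middle of the 3 daily levels, migratory dendritic cells were next with 119.8, 1149 and 505 CPM, though at day 3 they were below cDC1. These levels came from 38, 19 and 52 cells, and 50% or more of the UMIs lay in 1, 2 and 3 cells. In cDC1 Ifitm1 had 212, 359 and 246 CPM. In monocytes 33.3%, 26.6% and 26.9% of cells held a UMI, and at day 7 just 2 cells held 50% or more of the Ifitm1 UMIs of the gate. The pDC gate had 2, 0 and 0 UMIs, where 0 of 35 cells with a UMI at day 14 allows a share of cells with a UMI of up to 8.57%, from the floor of 3 counts.

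As a share of the UMIs of the 4 genes together, Ifitm3 made up 73.3%, 68.5% and 69.6% in monocytes at days 3, 7 and 14, and Ifitm1 2.02%, 2.53% and 2.01%. In cDC2 the Ifitm1 share was 13.6%, 18.7% and 19.5%. In neutrophils Ifitm1 made up 18.9%, 34.6% and 38.2%, and Ifitm3 45.3%, 29.6% and 25.8%. The summed level of the family was 6471, 7151 and 5495 CPM in monocytes and 6538, 4543 and 7451 CPM in neutrophils.

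Across 36 sums of gate and day with at least 20 cells, the log2 level of Ifitm2 went with that of Ifitm3 (Pearson r 0.93) and Ifitm3 with Ifitm6 (0.91), while Ifitm1 went less with Ifitm2 (0.74), Ifitm3 (0.57) and Ifitm6 (0.50). Among 8889 genes, the patterns most like Ifitm1 were those of S100a11 (0.87), Il1r2, a decoy receptor for interleukin-1 (0.86), and Rab11fip1 (0.78). Those most like Ifitm2 were Il1b (0.94), Cdkn1a (0.94) and Mcemp1 (0.94), those most like Ifitm3 were Ralb (0.95), App (0.93) and Eps8 (0.92), and those most like Ifitm6 were Sirpb1c (0.93), Mefv (0.93) and Gm9733 (0.92). The sums come from 3 libraries and some barcodes pass more than 1 gate, so the points are not independent and r is given as a description.

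Between days, in monocytes 0 of the 4 were higher or lower by the size rule at day 7 over day 3, where 5.64% of all genes were higher and 7.55% lower. At day 14 over day 7, 0 were higher and 2 were lower (5.13% and 4.8% of all genes): Ifitm1, of which 2 cells held 50% or more at day 7, at 0.61-fold (0.55 to 0.68) and Ifitm6 at 0.59-fold (0.56 to 0.63). At day 14 over day 3 again 0 of 4 passed in either direction (5.52% and 8.6%), with Ifitm3 at 0.81-fold (0.79 to 0.82) and Ifitm6 at 0.87-fold (0.81 to 0.92). The genes were chosen with these levels known, so the counts describe the members and nothing is read from them.

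In cDC2, 0 of the 4 passed at day 7 over day 3 (4.26% of all genes higher, 3.25% lower), 1 was lower at day 14 over day 7 (5.52% and 5.68%), namely Ifitm6 at 0.61-fold (0.52 to 0.71), and 2 were lower at day 14 over day 3 (7.08% and 6.6%). The 2 were Ifitm3 at 0.66-fold (0.63 to 0.68) and Ifitm6 at 0.63-fold (0.54 to 0.74). In the same gate Ifitm1 at day 14 was 1.05-fold its level at day 3 (0.98 to 1.12), and at this depth the 2 levels could not be told apart.

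The other myeloid gates gave further values. In macrophages Ifitm1 was higher at day 7 over day 3 at 2.60-fold (2.29 to 2.95) and lower at day 14 over day 7 at 0.55-fold (0.49 to 0.61), with 75.05, 195 and 106 CPM at days 3, 7 and 14. Without the 1, 5 and 5 barcodes that also passed the cDC2 gate, these ratios were 1.69-fold (1.46 to 1.94) and 0.76-fold (0.66 to 0.86), and the second was no longer lower by the size rule, nor was it without the cell with most Ifitm1 of each day (0.70-fold). At day 7 the 9 macrophages with 10 or more Ifitm1 UMIs had 311 CPM of Cd209a, a cDC2 gene, against 4.59 CPM in macrophages without Ifitm1. The part of cDC2 RNA in these ratios beyond the barcodes removed was not tested. In non-classical monocytes the course of Ifitm1 was the other way, with 91.6, 55.1 and 95.4 CPM, at 0.60-fold (0.44 to 0.82) for day 7 over day 3 and 1.73-fold (1.28 to 2.37) for day 14 over day 7. Ifitm6 in non-classical monocytes was higher at day 7 over day 3 at 1.97-fold (1.76 to 2.20) and lower at day 14 over day 7 at 0.47-fold (0.42 to 0.52), so that within this gate the 2 genes differed in opposite directions. Of the barcodes of this gate, 52 of 152, 51 of 112 and 44 of 171 at days 3, 7 and 14 also passed the monocyte gate. The part of that overlap in these ratios was not tested. In cDC1 Ifitm3 at day 14 was 0.52-fold its level at day 3 (0.48 to 0.56), and Ifitm2, with 718, 864 and 465 CPM, was 0.65-fold (0.58 to 0.72).

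In neutrophils, of the 4 genes 0 were higher and 2 lower at day 7 over day 3 (9.93% and 12.4% of all genes), Ifitm3 at 0.45-fold (0.40 to 0.51) and Ifitm6 at 0.33-fold (0.21 to 0.50). At day 14 over day 7, 3 were higher and 0 lower (8.04% and 11%): Ifitm1 at 1.81-fold (1.62 to 2.03), Ifitm2 at 1.56-fold (1.39 to 1.76) and Ifitm6 at 2.83-fold (1.91 to 4.32). At day 14 over day 3, Ifitm1 was higher at 2.31-fold (2.05 to 2.60) and Ifitm3 lower at 0.65-fold (0.59 to 0.71), 1 gene in each direction (7.54% and 13.9%). So Ifitm1 and Ifitm3 differed in opposite directions between these days. The neutrophil gate also held RNA of genes that mark other cells. Clec10a, Flt3, H2-DMb2 and Cd74 summed to 939, 418 and 2833 CPM at days 3, 7 and 14, with 3, 3 and 0 of the 4 at 0 UMIs. This sum was also 16376 CPM in B cells and 4043 CPM in monocytes at day 3, so it does not name the source. Without the barcodes that also passed a gate of another lineage, 79, 71 and 132 cells were left, with 1499, 2081 and 2744 CPM of Ifitm1 and 2612, 1366 and 1436 CPM of Ifitm3. In them Ifitm1 and Ifitm2 at day 14 over day 7 were at 1.32-fold (1.17 to 1.48) and 1.38-fold (1.22 to 1.56) and no longer met the size rule, Ifitm6 was at 1.75-fold (1.14 to 2.76), and at day 14 over day 3 Ifitm6 was lower at 0.62-fold (0.46 to 0.85). Ifitm1 at day 14 over day 3 was at 1.83-fold (1.61 to 2.09) and Ifitm3 at 0.55-fold (0.49 to 0.62) in these barcodes. The part of the remaining RNA from other cells in these levels was not tested.

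Since the family is known as an interferon target, the members were set beside 2 interferon lists in the same cells. At day 14 over day 3 in monocytes, 0 genes of the type I interferon list were higher and 24 lower of 33 measured, with a median log2 ratio of -0.82, and of the interferon-gamma list 0 were higher and 21 lower of 22, with a median of -1.80, against a median of 0.01 over all genes tested. Isg15, a ubiquitin-like antiviral protein, had 303 CPM at day 14 against 830 CPM at day 3 (0.37-fold, 0.34 to 0.39). Irf7, which amplifies type I interferon, had 219.9 CPM against 389 CPM (0.56-fold, 0.53 to 0.61). Cxcl9, a T cell chemokine induced by interferon-gamma, had 336 CPM against 2468 CPM (0.14-fold, 0.13 to 0.14), and Gbp2, a guanylate-binding protein, 808 CPM against 3003 CPM (0.27-fold, 0.26 to 0.28). Beside these, the log2 ratios of Ifitm1, Ifitm2, Ifitm3 and Ifitm6 were -0.24, 0.01, -0.31 and -0.21. Ifi27l2a, another gene of the type I list, was at 1464 CPM at day 14 and 1533 CPM at day 3 (0.955-fold, 0.93 to 0.98), so the members were not alone among interferon targets in missing the size rule. Of the 10 interferon receptor and signalling genes, 1 was higher and 3 lower, and Ifngr1, a chain of the interferon-gamma receptor, was the higher one at 1.55-fold (1.43 to 1.68).

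**Figure D2:**
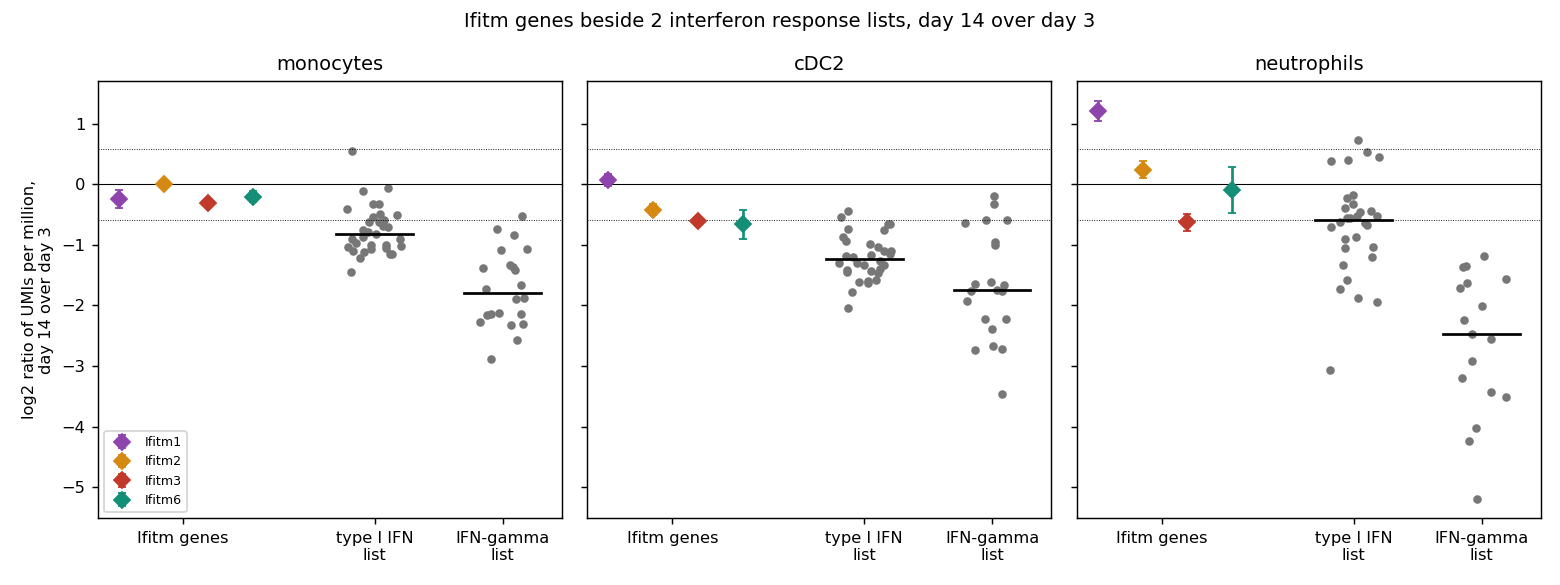
Log2 ratio of CPM, day 14 over day 3, in monocytes, cDC2 and neutrophils: diamonds are the 4 Ifitm genes with exact 95% counting intervals, grey points are measured genes of the type I interferon and interferon-gamma lists, black lines their medians and dotted lines the 1.5-fold rule. In monocytes the 4 Ifitm genes lie between -0.31 and 0.01, above the list medians of -0.82 and -1.80, and in neutrophils Ifitm1 lies at 1.21.

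In cDC2, 29 of 32 type I genes were lower at day 14 over day 3 (median -1.23) and 18 of 21 interferon-gamma genes (median -1.75), with 0 higher in both lists, while the log2 ratios of Ifitm1, Ifitm2, Ifitm3 and Ifitm6 were 0.06, -0.42, -0.61 and -0.66. Isg15 had 120.2 CPM in cDC2 at day 14 against 412 CPM at day 3 (0.29-fold, 0.25 to 0.34). In neutrophils 13 of 30 type I genes were lower and 0 higher (median -0.59), as were 17 of 17 interferon-gamma genes (median -2.46). Gbp2 had 259 CPM in neutrophils at day 14 against 1429 CPM at day 3 (0.18-fold, 0.15 to 0.22), whereas Ifitm1 was higher in the same libraries. Of all genes, 8.6%, 6.6% and 13.9% were lower at day 14 over day 3 in monocytes, cDC2 and neutrophils, and 5.52%, 7.08% and 7.54% higher. A test of the members against the lists was not made.

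Within cDC2, Ifitm1 was uneven from cell to cell. The median cell had 184, 307 and 375 CPM at days 3, 7 and 14 against gate means above 1100, and at day 7 the upper quartile was 1551 CPM. Cells with 10 or more Ifitm1 UMIs numbered 29, 36 and 43, and cells with 0 numbered 33, 28 and 20, and differed in depth at day 7 (median UMIs 12782, 18230.5 and 16518 against 13338, 11717.5 and 13425.5). This division was chosen after seeing the data, and the genes below come from the same cells, so they describe the classes. The genes named were the highest and lowest by interval, the members, and 6 genes chosen after their values were seen. Of 4544 genes measured at all 3 days, 27 were higher at each day (0.594%) and 53 lower (1.17%) in the Ifitm1-rich cells.

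Lyz2, the lysozyme of monocytes and macrophages, had 814, 679 and 539 CPM in the Ifitm1-rich cells at days 3, 7 and 14, against 4709, 6830 and 3415 CPM in the cells without Ifitm1 (0.17-fold, 0.0995-fold and 0.16-fold). The monocyte genes Ly6c2 (0.22-fold, 0.54-fold and 0.33-fold) and Ccr2, a chemokine receptor (0.49-fold, 0.46-fold and 0.42-fold), were lower as well, and so were Fn1, fibronectin, and Cd44, an adhesion receptor. On the other side, Plet1, a surface protein of placental progenitors and some dendritic cells, had 118, 329 and 94.9 CPM against 0 CPM at each day. Il1r2 was higher by 4.20-fold, 6.98-fold and 6.34-fold, Cst3, a cystatin abundant in dendritic cells, by 2.63-fold, 3.02-fold and 2.26-fold, and H2-DMb2, a class II peptide-loading protein, by 2.63-fold, 2.70-fold and 3.01-fold. The gate's own marker, Cd209a, was close in both classes at day 3 (897 against 929.9 CPM, 0.96-fold) and somewhat lower in the Ifitm1-rich cells at days 7 and 14 (0.66-fold, which meets the size rule, and 0.75-fold, which does not).

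**Figure D3:**
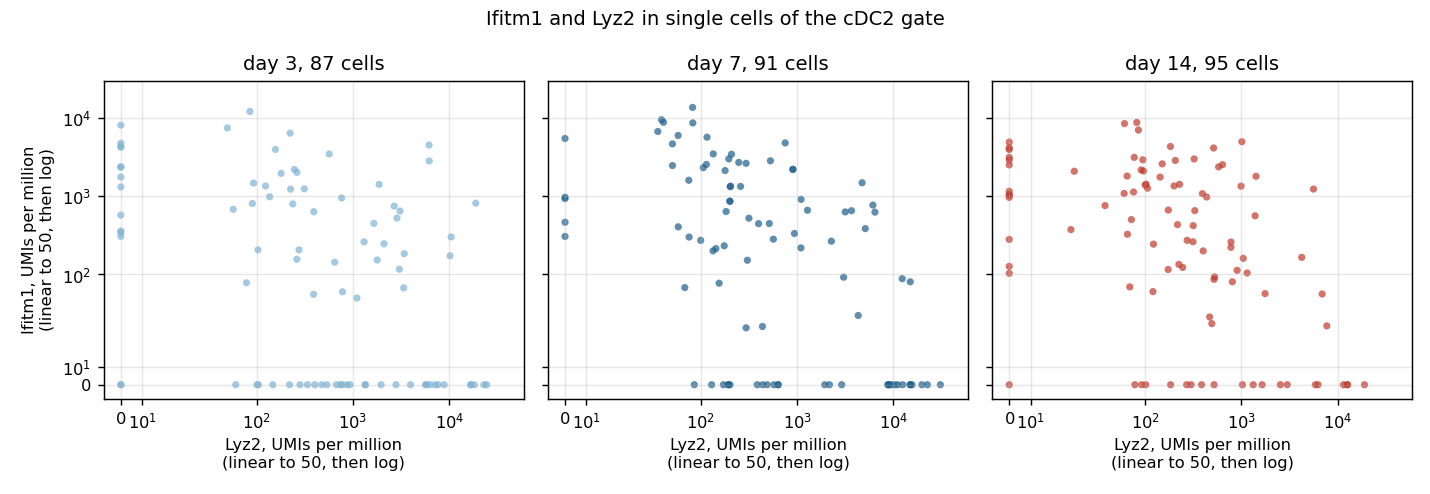
Ifitm1 against Lyz2 in single cells of the cDC2 gate, in CPM on axes linear to 50 and logarithmic above, for 87, 91 and 95 cells at days 3, 7 and 14. Most of the cells with highest Ifitm1 have little Lyz2 at each day, and most cells with the highest Lyz2 have no Ifitm1 UMI.

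The other members did not divide the cDC2 cells in this way. Ifitm6, the monocyte-rich member, went with Lyz2: it had 181, 185 and 129 CPM in the Ifitm1-rich cells against 298, 422 and 329 CPM in the cells without Ifitm1 (0.61-fold, 0.44-fold and 0.39-fold). Ifitm3 had 5712, 4725 and 3783 CPM against 4512, 4876 and 3686 CPM, and its ratios of 1.27, 0.97 and 1.03 did not reach the size rule at any day. Ifitm2 was higher at day 3, at 1.75-fold (1.58 to 1.93), with 0.95-fold at day 7 and 1.41-fold at day 14. Isg15 gave 0.74-fold, 0.92-fold and 1.57-fold, so the interferon gene did not keep a direction between the classes.

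The same division in neutrophils, with 11, 18 and 38 Ifitm1-rich cells and 35, 22 and 39 cells without Ifitm1, left 3 of 789 genes higher at each day (0.38%) and 12 lower (1.52%). The day 3 class rested on a single barcode of 43425 UMIs, 65.2% of the UMIs of its 11 cells. At day 14 the deepest Ifitm1-rich barcode had 43640 UMIs, 29.2% of its class, and it also passed the cDC2 gate. It held 223 of the 423 Ifitm3 UMIs of that class. Spp1, osteopontin, had 15.0, 60.1 and 267 CPM in the Ifitm1-rich cells against 7018, 2482 and 1428 CPM in the cells without Ifitm1, but 2 cells held 471 of 610, 216 of 217 and 113 of 156 Spp1 UMIs of the cells without Ifitm1. Thbs1, a matricellular protein, was lower at 0.14-fold, 0.25-fold and 0.40-fold, and without the deepest Ifitm1-rich cell of each day at 0.26-fold, 0.25-fold and 0.47-fold.

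Lgals3, galectin-3 (0.33-fold, 0.22-fold and 0.41-fold), and Plin2, a lipid droplet protein (0.37-fold, 0.31-fold and 0.27-fold), were also lower, and Hmgb2, a chromatin protein, was higher by 2.09-fold, 2.52-fold and 2.39-fold. At day 3 without the deepest cell, these 3 genes were at 0.69-fold (0.41 to 1.10), 0.59-fold (0.27 to 1.15) and 1.38-fold (0.62 to 2.83) and did not meet the size rule. Ifitm2 was at 0.58-fold, 2.13-fold and 2.04-fold, and at day 3 it turned to 1.47-fold (1.11 to 1.92) without that cell. Ifitm3 was at 1.53-fold, 1.01-fold and 2.43-fold, and at 3.14-fold, 1.08-fold and 1.62-fold without the deepest cell of each day. Ifitm6 at day 3 was at 0.96-fold with that cell and 2.24-fold (1.31 to 3.76) without it.

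In CD8 T cells the family was far lower, and the gate also held myeloid RNA. All CD8 T barcodes together had 37.3, 114 and 70.5 CPM of Ifitm1 at days 3, 7 and 14. Ifitm2 had 108, 97.2 and 107 CPM and Ifitm3 329, 172 and 231 CPM. Ifitm6 had 14.5, 9.09 and 8.26 CPM. Ifitm1 was thus highest at day 7, when Ifitm3 was lowest. By the size rule 1 member was higher and 2 lower at day 7 over day 3 (6% and 12% of all genes), 0 higher and 1 lower at day 14 over day 7 (5.87% and 3.99%), and 1 higher and 1 lower at day 14 over day 3 (4.62% and 7.07%). The ratios of day 7 over day 3 were 3.07 (2.71 to 3.48) for Ifitm1, 0.90 (0.82 to 0.98) for Ifitm2 and 0.52 (0.49 to 0.55) for Ifitm3.

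Of 10 myeloid marker genes in the same barcodes, 9 were lower and 0 higher at day 7 over day 3, and 10 of 10 were higher at day 14 over day 7. Lyz2 had 603, 181 and 564 CPM at days 3, 7 and 14, and the 5 markers Lyz2, Cst3, Tyrobp, Fcer1g and C1qa, of which 0 were at 0 CPM, summed to 1729.5, 705 and 1603 CPM. Barcodes that passed gates of 2 lineages numbered 46, 14 and 31, and 80, 87 and 39 CD8 T barcodes were shared with another library. Ifitm1 RNA was held by few cells: 5, 4 and 2 cells held 50% or more of it, and the cell with most held 53, 208 and 200 UMIs.

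A set of CD8 T barcodes with little myeloid RNA was therefore formed after seeing the data, with under 2 UMIs of Lyz2, under 3 of 3 class II genes, under 2 of S100a8 and S100a9 together and 0 of Cd209a. It held 265, 397 and 327 cells. These limits are UMI counts, so deeper barcodes were removed more readily. Cells without Ifitm1 had median depths of 14809.5, 12742 and 10794.5 UMIs over all barcodes, and 9725, 11047 and 9095.5 UMIs in the set. The part of this selection by depth was not tested. In the set all 3 main members were highest at day 7. Ifitm1 had 30.8 CPM at day 3 (25.2 to 37.3), 67.4 CPM at day 7 (60.9 to 74.5) and 6.03 CPM at day 14 (3.90 to 8.895). Ifitm2 had 23.8, 51.9 and 19.5 CPM. Ifitm3 had 37.9, 59.3 and 25.8 CPM, against 329, 172 and 231 CPM over all barcodes. The log2 ratios of day 7 over day 3 were 1.13 for Ifitm1 (0.81 to 1.45), 1.12 for Ifitm2 (0.77 to 1.496) and 0.65 for Ifitm3 (0.35 to 0.95), or 2.19-fold, 2.18-fold and 1.56-fold, all higher by the size rule. The ratios of day 14 over day 7 for these genes were 0.0894-fold, 0.38-fold and 0.43-fold, all lower by the size rule. Ifitm6 was left with 6, 5 and 7 UMIs. Ifitm3 thus had opposite directions at day 7 over day 3 with and without these barcodes, and the part of RNA from other cells in either direction was not tested.

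**Figure D4:**
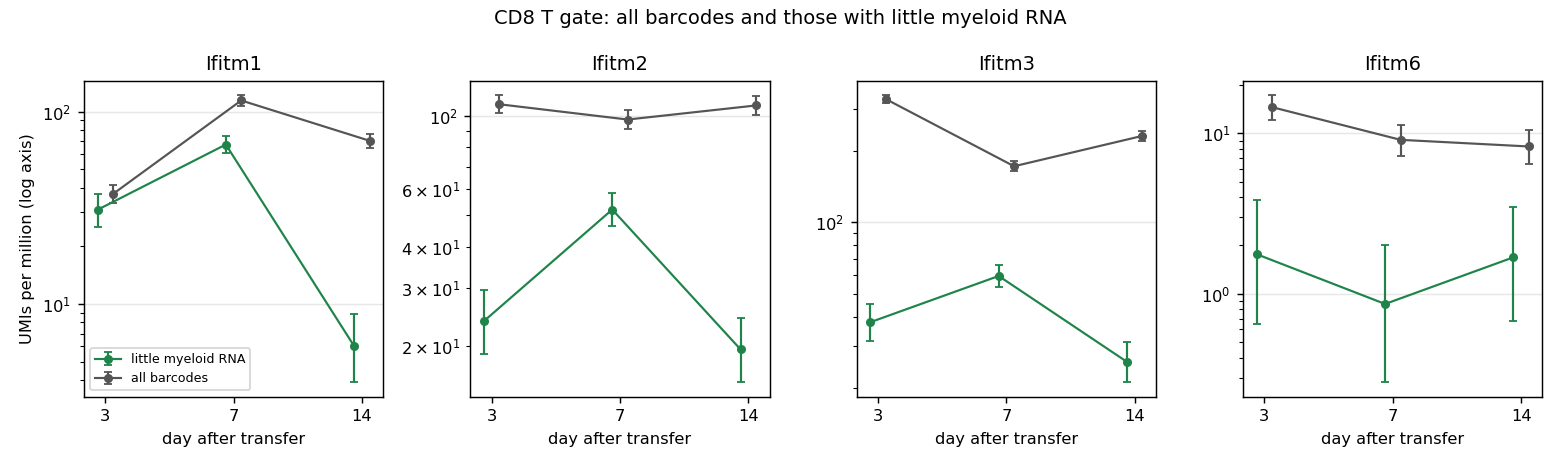
Level of the 4 Ifitm genes in the CD8 T gate at days 3, 7 and 14, in CPM on log axes that differ between panels, for barcodes with little myeloid RNA and for all barcodes, with exact 95% counting intervals. Ifitm1, Ifitm2 and Ifitm3 peak at day 7 in barcodes with little myeloid RNA, while Ifitm3 over all barcodes is lowest at day 7.

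Shares of cells give a further measure of how low these levels are. With every cell thinned to 1500 UMIs, 16.6%, 10.8% and 10.5% of CD8 T cells held an Ifitm3 UMI (50.1%, 39.5% and 36.9% unthinned, median depth 16155, 13506 and 11028 UMIs). The pDC gate, with 39, 10 and 35 cells, had 8.59%, 11.9% and 13.6% (43.6%, 40% and 31.4% unthinned, median depth 9916, 12636.5 and 8822 UMIs). At days 7 and 14, 2 of the 10 and 9 of the 35 pDC barcodes passed gates of 2 lineages. Without them the pDC share at day 14 was 8.45%, so no order of the CD8 T and pDC shares is read at these days. NK cells had 8.24%, 5.92% and 5.56%. For Ifitm1 the thinned share was 3.18%, 5.53% and 3.46% in CD8 T cells and 2.40%, 4.20% and 1.57% in those with little myeloid RNA, against 0.758%, 0% and 0% in pDC.

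The transferred receptor uses the beta chain segment Trbv14, which host T cells can also use and which a 3' library catches in part of the cells. Among CD8 T barcodes with little myeloid RNA, those with a Trbv14 UMI (36, 113 and 73 cells) had 80.1, 96.4 and 3.77 CPM of Ifitm1 at days 3, 7 and 14, and those without one (229, 284 and 254 cells) had 19.5, 51.1 and 7.43 CPM. Ifitm3 had 34.6, 88.7 and 25.8 CPM with Trbv14 and 38.7, 42.7 and 25.8 CPM without. So both sets were lower at day 14 than at day 7 for Ifitm1, and at day 7 the level of Ifitm3 was higher with Trbv14. Over all barcodes the order was other, with 76.2, 64.4 and 21.1 CPM of Ifitm1 with Trbv14 (79, 155 and 136 cells) and 23.6, 147 and 121 CPM without (364, 362 and 322 cells). Lyz2 over all barcodes also differed between these sets, with 668, 56.1 and 350 CPM with Trbv14 and 580, 263 and 781 CPM without. Ifitm2 with little myeloid RNA had 15.7, 73.4 and 30.8 CPM with Trbv14 and 25.65, 39.7 and 12.5 CPM without, and so was highest at day 7 in both sets. At day 3 a single cell held 38 of the 51 Ifitm1 UMIs of the Trbv14 set with little myeloid RNA, and at day 7 one held 95 of 201. Without the cell with most Ifitm1 in each set, Ifitm1 had 21.9, 51.6 and 2.60 CPM with Trbv14 and 13.1, 33.7 and 5.09 CPM without.

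In CD4 T cells the gate sums also rested on few cells. Ifitm1 had 69.7, 101 and 354.5 CPM at days 3, 7 and 14, but single cells held 34 of 61, 74 of 141 and 256 of 700 UMIs. Of the 4 members, 0 were higher and 3 lower at day 7 over day 3 (6.07% and 9.46% of all genes), 4 higher and 0 lower at day 14 over day 7 (5.56% and 4.54%), and 1 higher and 1 lower at day 14 over day 3 (3.71% and 6.46%). Of 10 myeloid markers, 10 were lower at day 7 over day 3 and 10 higher at day 14 over day 7, and 5 of them summed to 4184, 1175 and 3339 CPM, with 0, 1 and 0 of the 5 at 0 UMIs. In CD4 T barcodes with little myeloid RNA (39, 93 and 130 cells) Ifitm1 had 2, 20 and 4 UMIs, or 8.17, 23.1 and 4.20 CPM. There Ifitm2 had 24.5, 73.9 and 87.1 CPM and Ifitm3 36.8, 125 and 95.5 CPM. Over all CD4 T barcodes Ifitm2 had 314, 171 and 312 CPM and Ifitm3 1080.3, 420.1 and 655 CPM. Foxp3-positive T cells, which overlap with this gate, had 95.1, 96.6 and 299 CPM of Ifitm1 over all barcodes and 0, 0 and 3 UMIs with little myeloid RNA (25, 30 and 57 cells).

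NK cells had 11.3, 57.2 and 4.89 CPM of Ifitm1, and at day 7 a single cell held 153 of its 166 UMIs. Ifitm2 had 70.0, 95.1 and 39.1 CPM in NK cells and Ifitm3 306, 136 and 137 CPM. By the size rule 1 member was higher and 1 lower at day 7 over day 3 (3.27% and 5.1%), 0 higher and 3 lower at day 14 over day 7 (3.5% and 5.48%), and 0 higher and 3 lower at day 14 over day 3 (3.98% and 8.15%). Myeloid markers moved here too: of 10 myeloid markers, which include the NK genes Tyrobp and Fcer1g, 5 were lower at day 7 over day 3 and 3 at day 14 over day 3, with 0 higher in both. With little myeloid RNA (190, 358 and 124 cells), Ifitm3 had 38.5, 31.7 and 21.8 CPM in NK cells, with intervals of 27.4 to 52.7, 24.8 to 39.8 and 12.5 to 35.4 that overlap. Ifitm2 had 9.88, 34.7 and 8.17 CPM there, and at day 7 a single cell held 46 of its 80 UMIs. The part of RNA from other cells in the levels of CD4 T and NK cells was not tested.

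At day 7, 74 of 517 CD8 T cells held an Ifitm1 UMI. Over all barcodes, these Ifitm1-positive cells were marked by genes of other cell types, and they were deeper, with a median of 18158.5 UMIs against 12742 in cells without Ifitm1. S100a9, a neutrophil calgranulin, had 131 CPM in the Ifitm1-positive cells against 1.198 CPM in the cells without Ifitm1, and H2-Ab1, a class II chain, 629 CPM against 76.4 CPM. Just 2 CD8 T barcodes of day 7 also passed the neutrophil gate. S100a8, the partner of S100a9 in that gate, had 73.8 CPM in the 54 cells with 1 to 9 Ifitm1 UMIs. In the 20 cells with 10 or more it had 0 CPM. Cd209a, a cDC2 gene, had 39.5 CPM in these 20 cells against 0.399 CPM in the 443 cells without Ifitm1. Il1r2 had 158 CPM against 16.9 CPM. The part of RNA from other cells in these classes was not tested. Of all 10067 genes measured, 530 were higher (5.26%) and 225 lower (2.24%), and 8 of 10 myeloid markers were higher. Of the type I interferon list 2 of 30 genes were higher and 0 lower (median log2 ratio 0.09, against 0.01 over all genes). At days 3 and 14 the same comparison gave 12 of 30 and 13 of 29 genes higher and 0 lower (medians 0.46 and 0.59), where 10.1% and 8.2% of all genes were higher and 4.95% and 3.68% lower.

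Among day 7 cells with little myeloid RNA, 44 held Ifitm1 and 353 did not, with 226 of 9249 genes higher (2.44%) and 201 lower (2.17%). Of 6 myeloid markers measured there, 1 was higher and 0 lower, with a median log2 ratio of 0.31 against -0.02 over all genes. The part of remaining myeloid RNA in the ratios below was not tested. The genes highest in the Ifitm1-positive cells included another member: Ifitm2 had 180.2 CPM in the Ifitm1-positive cells against 34.4 CPM in the cells without Ifitm1 (5.24-fold, 4.13 to 6.63), from 26 of the 44 cells. Ifitm3 had 143 CPM against 47.9 CPM (2.98-fold, 2.33 to 3.78), and Ifitm6 had 0 UMIs against 5. Granzymes were among the highest: Gzmc had 640.1 CPM against 138 CPM (4.65-fold, 4.12 to 5.24) and Gzma 449.8 CPM against 127 CPM (3.55-fold, 3.09 to 4.07). Gzmf was higher too, but 1 cell held 190 of its 263 UMIs. Ccl1, a chemokine of activated T cells, was higher at 3.98-fold (3.48 to 4.55) from 7 cells, and Csf2, the growth factor GM-CSF, at 7.78-fold from 4 cells.

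The lowest genes were Tox, a regulator of exhausted T cells, with 53.3 CPM in the Ifitm1-positive cells against 164 CPM in the cells without Ifitm1 (0.32-fold, 0.23 to 0.45), Eomes, a T-box factor, with 7.21 CPM against 37.7 CPM (0.19-fold, 0.061 to 0.45), Areg, a growth factor, with 2.88 CPM against 30.1 CPM, and Serpine2, Tff1 and Il10, each with 0 UMIs in the Ifitm1-positive cells. Of 14 effector genes 4 were higher (Gzma, Gzmc, Ifng and Ccl3) and 2 lower (Gzmk and Ccl5, at 0.61-fold and 0.58-fold). Among naive and memory genes, Bcl2, a survival factor, was higher at 1.54-fold, and Tcf7, Dapl1 and Id3 were lower at 0.61-fold, 0.27-fold and 0.33-fold. Of the 9 genes of the inhibitory receptor list, 0 were higher and 1 lower (Tox, a listed regulator that is not a receptor). Of 10 cell cycle genes 0 passed in either direction. Of 29 type I interferon genes 1 was higher (Ifih1, a sensor of viral RNA, at 2.26-fold, 1.08 to 4.40) and 0 lower, with a median log2 ratio of -0.15 against -0.02 over all genes. At days 3 and 14 in this set 0 were higher, and 6 of 26 and 1 of 24 were lower (4.4% and 6.16% of all genes higher, 5.28% and 3.23% lower). A Trbv14 UMI was found in 54.5% of the Ifitm1-positive cells and 25.2% of the cells without Ifitm1, at median depths of 13625 and 11047 UMIs. At days 3 and 14 the set held 17 Ifitm1-positive cells each, and Ifitm2 was higher in them at 11.5-fold and 5.99-fold. Effector genes did not keep their direction over the days: Ifng was at 21.7-fold, 1.69-fold and 0.37-fold at days 3, 7 and 14, and Ccl3 at 10.99-fold, 1.501-fold and 0.34-fold.

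Over all CD8 T barcodes, 7 of 32 type I interferon genes were lower at day 14 than at day 7 and 2 were higher (median -0.26). Of all genes, 3.99% were lower and 5.87% higher in this comparison. At day 7 over day 3, 1 type I gene was higher and 7 were lower (median -0.27), where 6% of all genes were higher and 12% lower. Ifi27l2a was the higher one, with 801 CPM at day 7 against 387 CPM at day 3 (2.07-fold, 1.99 to 2.16), and it was lower again at day 14 (501 CPM, 0.63-fold, 0.60 to 0.65), the course that Ifitm1 took. Isg15 had 50.5 CPM at day 7 against 78.8 CPM at day 3 and 33.1 CPM at day 14 against 50.5 CPM at day 7, lower both times. With little myeloid RNA, 10 of 29 type I genes were lower at day 14 than at day 7, where 3.71% of all genes were. Ifng was the 1 interferon gene of 10 listed with enough UMIs to compare, and had 263 CPM in CD8 T cells at day 7 against 1161 CPM at day 3 (0.23-fold, 0.22 to 0.24).

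Of the wider dispanin family, to which the IFITM proteins belong, 10 other genes were looked for and 3 had enough UMIs in CD8 T cells at day 7 over day 3, of which 2 were higher. In this comparison 6% of all genes were higher and 12% lower. The lists of this paragraph are small, and nothing is read from their counts. Ifitm10, which lies farther off on chromosome 7, had 18.9 CPM at day 7 against 8.12 CPM at day 3 (2.33-fold, 1.77 to 3.10) and 8.88 CPM at day 14 against 18.9 CPM at day 7 (0.47-fold, 0.35 to 0.62), and Tmem91 was the other. Genes of the locus other than the members gave 3 higher and 0 lower of 7 at day 7 over day 3: Pkp3, plakophilin-3, at 1.86-fold, Sigirr, an inhibitory receptor of the interleukin-1 family, at 1.51-fold, and Pgghg at 1.51-fold. Of 10 measured genes whose proteins modify or bind IFITM proteins, 0 were higher and 2 lower: Vapa, an endoplasmic reticulum anchor that Ifitm3 binds, at 0.66-fold, and the tetraspanin Cd9 at 0.54-fold. In monocytes at day 14 over day 3 this list gave 2 higher and 1 lower of 10 (5.52% and 8.6% of all genes), with Cd9 at 1.52-fold and Fyn, a kinase that phosphorylates Ifitm3, at 0.595-fold.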

How the data were processed

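Per the submitters' processing notes, reads were processed with Cell Ranger 4.0.0 against mm10. The authors deposited whole-number UMI counts per gene and cell barcode, not normalized. The library chemistry, per the labels' protocols, was 10x Genomics 3' v3.1, and the annotation release is not given in the sources used here. Totals were 33096709, 29547433 and 35742070 UMIs in 3656, 3038 and 3549 barcodes at days 3, 7 and 14. Barcodes of at least 1500 UMIs were placed in marker gates, so a barcode could pass more than 1 gate, and no doublet caller was run. Barcodes of 2 lineages, with 2 or more Lyz2 UMIs or shared between libraries were removed as alternatives instead. UMIs were summed per gate and day. CPM have exact Poisson 95% intervals, ratios exact conditional intervals and shares of cells exact binomial intervals. The floor of a count of 0 was 3 counts. Shares were also computed after thinning cells to 1500 UMIs. With 1 library per day no result was tested.

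The members, gates and gene lists were chosen with earlier results of these data known. A gene of the naive and memory list is not reported here, and that list is given without counts. The genes named are the members, up to 4 dispanin or partner genes and up to 6 genes of each list by most UMIs, the 3 genes most like each member by Pearson correlation of log2(CPM + 1), and the 6 highest and 6 lowest genes by interval in CD8 T cells with Ifitm1 at day 7, among genes of at least 100 UMIs; others were chosen after their values were seen. Alternatives changed the UMI minimum (none or 3000), the cell filter (200 genes and under 10% mitochondrial UMIs), the scaling (TMM from edgeR, median of ratios, totals without mitochondrial and ribosomal genes, per-cell means), the gates, the cell with most UMIs, the list minimum and the fold. The set with little myeloid RNA, the Ifitm1 classes of 10 or more UMIs, and the values of neutrophils, macrophages and Trbv14 sets without single cells or without barcodes of another gate were added after seeing the data. Intervals were checked on simulated counts. Python 3.11.15, numpy 2.4.6, pandas 2.3.3, scipy 1.17.1, matplotlib 3.10.9, R 4.3.3 and edgeR 4.0.16 were used.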

Additional observations from a re-analysis of the deposited data

Results flagged for a closer look

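At day 14 over day 7, all of Ifitm1, Ifitm2 and Ifitm6 were higher in CD4 T cells and lower in NK cells by the size rule, and this difference between the gates was not tested. For Ifitm1 the log2 ratio was 1.81 in CD4 T cells and -3.55 in NK cells, a difference of 5.35. For Ifitm2 it was 0.87 in CD4 T cells and -1.28 in NK cells, a difference of 2.15. For Ifitm6 it was 2.02 in CD4 T cells and -1.89 in NK cells, a difference of 3.91. These ratios are over all barcodes. In CD4 T barcodes with little myeloid RNA, Ifitm1 was lower at day 14 than at day 7, the same direction as in NK cells. There Ifitm2 was not higher by the size rule, and Ifitm6 had 0 UMIs at day 14. Single cells held 256 of 700 Ifitm1 UMIs of CD4 T cells at day 14 and 153 of 166 of NK cells at day 7, and all 10 myeloid markers were higher at day 14 over day 7 in CD4 T cells. Their part in the difference was not tested.

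Ifitm1 was also found in barcodes that the depth minimum left out. In 19, 17 and 9 barcodes of under 1500 UMIs that passed the neutrophil gate at days 3, 7 and 14, it had 2987 CPM (2324 to 3779.8), 3516 CPM (2689.7 to 4517) and 2304 CPM (1476 to 3429), from 69, 61 and 24 UMIs. In neutrophils above the minimum it had 1234, 1571 and 2846 CPM. The number of these barcodes shared with another library was 0 at each day.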

How the results depend on the processing

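No paired analysis was possible because there is 1 library per day. Over the 10 results with alternatives, 89 values kept their direction and stayed within counting error or within 1.5 times the count, 37 moved further and 2 reversed. All are log2 ratios of CPM unless a count is named, and the causes were not tested. In CD8 T cells Ifitm3 at day 7 over day 3 was -0.94 and reversed to 1.41 without barcodes of 2 or more Lyz2 UMIs and to 0.65 in the set with little myeloid RNA. It moved to -1.07 without shared barcodes, -0.85 without mitochondrial and ribosomal genes in the total, -0.15 without barcodes of 2 lineages, -1.03 without the cell with most UMIs and -0.81 as a mean over cells. Ifitm3 at day 14 over day 7 was 0.42 and moved to 0.80 without shared barcodes, -0.80 without barcodes of 2 lineages, 0.10 as a mean over cells, -0.85 without Lyz2 and -1.20 with little myeloid RNA. Because 0.42 did not meet the size rule, its changes of sign count as moves. Ifitm1 at day 7 over day 3 was 1.62 and moved to 1.84 without shared barcodes, 2.00 without 2 lineages, 2.30 without Lyz2 and 1.13 with little myeloid RNA, and at day 14 over day 7 it was -0.70 and moved to -1.52 without 2 lineages, -0.998 without the top cell, -3.09 without Lyz2 and -3.48 with little myeloid RNA. Ifitm2 at day 7 over day 3 was -0.15 and moved to 0.65 without 2 lineages, 0.0884 as a mean over cells, 1.67 without Lyz2 and 1.12 with little myeloid RNA, and at day 14 over day 7 it was 0.14 and moved to -0.89, -0.22, -1.02 and -1.41 under these 4 settings. In monocytes at day 14 over day 3, Ifitm6 was -0.21 and moved to -0.32 without 2 lineages, and Ifitm3 was -0.31 and moved to -0.34 without shared barcodes, -0.25 without mitochondrial and ribosomal genes, -0.39 without 2 lineages and -0.34 with stricter gates. The count of type I interferon genes lower in CD8 T cells at day 14 over day 7 was 7, and became 12 without shared barcodes, 14 without 2 lineages, 14 without Lyz2 and 2 at a fold of 2. The count higher at day 7 over day 3 was 1, and became 2 without 2 lineages and 3 without Lyz2. Another scaling by TMM or by median of ratios moved none of these results beyond counting error. Depth limits Ifitm6 in lymphoid gates most, with 6, 5 and 7 UMIs in CD8 T barcodes with little myeloid RNA.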

Other observations

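In migratory dendritic cells, which were few, Ifitm1 differed widely between days. It had 119.8, 1149 and 505 CPM at days 3, 7 and 14, and day 7 over day 3 was 9.59-fold (7.38 to 12.6), from 38, 19 and 52 cells. In B cells Ifitm1 had 1, 0 and 16 UMIs, from 71, 6 and 50 cells. At day 14 the 5 B cell barcodes with 1 to 9 Ifitm1 UMIs had 3445.5 CPM of Lyz2, against 43.4 CPM in the 44 without Ifitm1. The part of myeloid RNA in this level was not tested.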
